A study of Cricetulus griseus with 8 samples.

Results

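The genes described here are the AP-1 transcription factors of the Fos, Jun and small Maf families together with Myc, chosen by symbol from a list of 10: Fos, Fosb, Fosl1, Fosl2, Jun, Junb, Jund, Maff, Mafk and Myc. Of these, 8 stood under their own symbol among the 26776 named genes of the deposited table. A further 1, Myc, was listed as LOC100773301, which the RefSeq gene table for the species names Myc, so that 9 genes were examined. Jund was not analysed here. They were measured by RNA sequencing in LR73, a phagocytic Chinese hamster line labelled as fibroblast, in 4 libraries of phagocytes alone and in 4 of phagocytes co-cultured with apoptotic cells. The apoptotic cells were Jurkat cells, a human T cell line. Per the labels, they received UV-C light at 1500 mJ and stood in culture for 4 h before they were added. Replicates are described as biological in the design text, with no word on how cultures were separated, and p-values measure the spread between these libraries. The length of the co-culture is not given in the sources used here.

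AP-1 is a set of dimers of basic leucine zipper (bZIP) proteins. FOS proteins (FOS, FOSB, FOSL1 and FOSL2) bind DNA only with a JUN partner, whereas JUN proteins can also pair with themselves. Fos, Fosb, Jun and Junb belong to the immediate early genes, which growth factors switch on within minutes through MAP kinases, and Fosl1 and Fosl2 follow later. The small MAF proteins (MAFF, MAFG and MAFK) lack an activation domain. They pair with themselves, with FOS, or with CNC factors such as NRF2 and BACH1. MYC belongs to another class, the basic helix-loop-helix zipper proteins, and binds DNA with MAX to drive ribosome production and growth.

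With apoptotic cells, 3 of the 4 Fos family transcripts rose, both measured Jun family transcripts and Myc did not pass the test, and both small Maf genes on the list fell. Fos rose 2.07-fold, Fosl2 1.49-fold and Fosl1 1.21-fold in mean normalized counts, while Maff fell to 0.797 and Mafk to 0.851 of their level in cells alone. A gene is said to rise or fall where limma gave a Benjamini-Hochberg adjusted p under 0.05 over the 13494 genes whose mean reached 10 normalized counts. All 9 genes passed that filter. Of them, 3 were higher and 2 lower, where 6.36% of all tested genes were called higher and 5.31% lower (11.7% in either direction). The count tests edgeR and DESeq2, run on recovered reads, called the same 3 higher and 2 lower, where they called 6.2% and 6.58% of all genes higher and 5.37% and 5.34% lower. The groups of 4 libraries did not overlap in these 5 genes. Among all tested genes the groups did not overlap in 21.2%, with the co-cultures higher in 11.4% and lower in 9.72%.

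**Figure D1:**
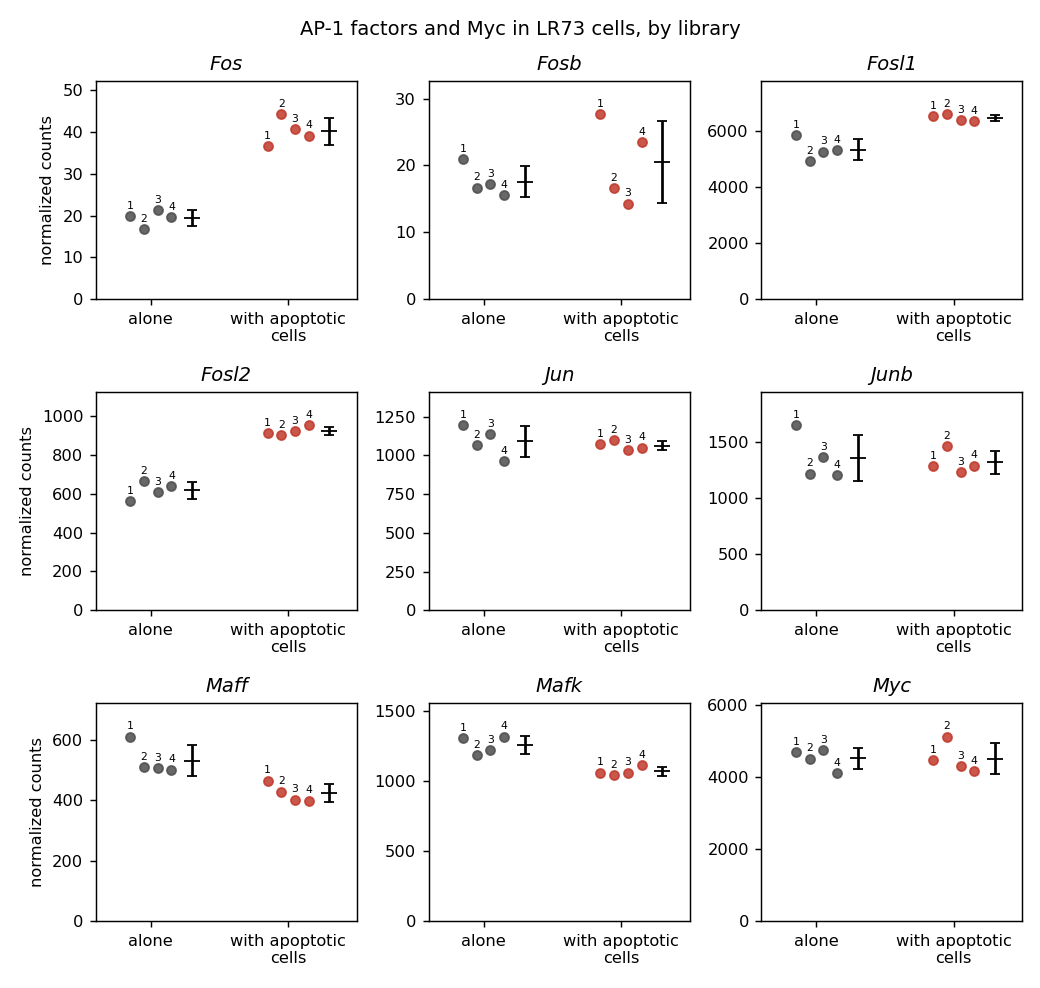
Normalized counts (y axis, from 0) of the 9 genes in each library of LR73 cells alone (grey) and with apoptotic cells (red), with replicate numbers beside the points and the mean and SD of 4 libraries as bars. Fos, Fosl1 and Fosl2 lie higher and Maff and Mafk lower in every co-culture, and the groups overlap in Fosb, Jun, Junb and Myc.

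The libraries held 22716373 to 29662144 reads in named genes. The first library of cells alone (alone library 1) was unlike all others, at -25.1 on the leading principal component against -9.1 to -5.7 for the rest of its group and 9.8 to 13.6 for the co-cultures, and its ribosomal protein transcripts lay 0.29 above the rest of its group (median log2 deviation of 73 genes). Without it, 13.4% of tested genes were higher and 12.5% lower (26% called), and the same 3 and 2 of the 9 genes were called. Of 13 fibroblast markers, Vim (vimentin) and Fn1 (fibronectin) were abundant, with 470403 and 134154 reads in cells alone. Thy1 had no reads, and the collagen genes Col1a1 and Col1a2 had 2 and 6 reads in the 4 libraries of cells alone. The 18 T cell markers together held 3843 reads in cells alone and 3370 in the co-cultures, most of them from Tcf7, Lat and Cd28. Only those 3 were high enough to be tested. Limma called 0 of them higher and 1 lower, where it called 6.36% of all tested genes higher and 5.31% lower. Reads went from 2850 to 2552 for Tcf7, 857 to 679 for Lat, 118 to 68 for Cd28 and 7 to 5 for Cd4. They went from 3 to 24 for Lef1, 3 to 14 for Ptprc and 0 to 9 for Lck, no other marker held more than 5 reads in either group, and Cd3d, Cd3g and Cd2 were at 0 in all libraries. The 14 markers with 5 or fewer reads over the libraries of cells alone, a set picked by that low level, held 11 reads there. In the co-cultures they held 66, with 9 markers higher and 0 lower. The summed level of the 18 ran from 903 to 925 normalized counts in cells alone and from 863 to 886 in the co-cultures. The part of human reads in the results below was not tested. In RNA from whole cultures, more cells with a transcript and more of the transcript per cell cannot be told apart.

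Fos, the founding member of the family, was scarce. It stood at 19.9, 16.7, 21.3 and 19.7 normalized counts in the libraries of cells alone and at 36.5, 44.2, 40.7 and 39.1 in the co-cultures, in the order of their numbers. The lowest co-culture library therefore lay well above the highest library of cells alone. These values rest on 19 to 21 reads per library of cells alone and 37 to 40 reads per co-culture. The log2 difference was 1.01 (SE 0.14, 95% interval 0.70 to 1.33, limma adjusted p = 0.00157). It ran from 0.95 to 1.06 when any 1 library was left out, and Fos was called under each of the 16 alternatives in which it was tested (adjusted p = 0.000198 to 0.0152). In the authors' deposited table, Fos has a log2 fold change of 0.425 and an adjusted p of 0.000647. That fold change has the same sign but is smaller than the 1.01 found here, and the reason for the gap was not tested.

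Fosb, which encodes a close relative of FOS, rested on 13 to 28 reads per library and did not pass the test. Its normalized counts were 20.9, 16.7, 17.3 and 15.5 in cells alone and 27.7, 16.6, 14.3 and 23.5 in the co-cultures. Co-culture libraries 1 and 4 were higher than all libraries of cells alone, and library 3 was lower than all of them. The log2 difference of 0.17 (SE 0.22, limma adjusted p = 0.655) had a 95% interval of -0.32 to 0.67, which allows anything from 0.8-fold to 1.59-fold. The SD of 30.1% of the mean among the co-cultures was the widest of the 9 genes in either group.

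Fosl2, encoding FRA2, had the smallest adjusted p of the 9 genes. Normalized counts were 562, 664, 608 and 637 in cells alone and 910, 902, 920 and 951 in the co-cultures. The means were 618 ± 43.8 and 921 ± 21.5 (SD, n = 4 per group). The log2 difference was 0.58 (SE 0.06, limma adjusted p = 0.000163), and it ran from 0.53 to 0.61 over left-out libraries. The authors' deposited table gives Fosl2 a log2 fold change of 0.52, near the 0.58 found here, whereas its 0.425 for Fos is below the 1.01 found here. How those fold changes were calculated, beyond the use of DESeq2, is not given in the sources used here. The 2 genes are therefore not ranked by them.

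Fosl1, encoding FRA1, had 5146 to 6162 reads per library of cells alone. It stood at 5851, 4946, 5276 and 5322 normalized counts in cells alone and at 6539, 6608, 6401 and 6363 in the co-cultures. All co-cultures were above alone library 1, the highest of the other group. The log2 difference was 0.28 (SE 0.05, 95% interval 0.18 to 0.38, limma adjusted p = 0.00435). The co-cultures lay close together, with an SD of 115 normalized counts against 374 in cells alone.

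Jun, which encodes the founding partner of the FOS proteins, did not differ beyond the spread between libraries. Normalized counts were 1194, 1069, 1139 and 963 in cells alone and 1073, 1100, 1033 and 1050 in the co-cultures. The co-cultures all lay inside the range of cells alone. The log2 difference of -0.03 (SE 0.06, limma adjusted p = 0.776) had a 95% interval of -0.17 to 0.11, or 0.889-fold to 1.08-fold, and its sign turned without alone library 1 (0.01).

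Junb, whose product can restrain JUN as well as partner FOS, overlapped between the groups too. It had 1647, 1217, 1362 and 1208 normalized counts in cells alone and 1288, 1464, 1231 and 1290 in the co-cultures. Alone library 1 was the highest of all 8, and lay 0.39 above the rest of its group on the log2 scale. The log2 difference was -0.04 (SE 0.09, 95% interval -0.24 to 0.17, limma adjusted p = 0.841), and 0.06 without alone library 1 (adjusted p = 0.399).

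The balance between Fos and Jun transcripts within each library follows from these values and does not depend on how libraries were scaled. Since gene length was not taken into account, only the change of a ratio between groups can be read, not its size. The ratio of Fos to Jun normalized counts was 0.0156 to 0.0204 in cells alone and 0.0341 to 0.0402 in the co-cultures. That of Fosl2 to Jun was 0.471 to 0.662 in cells alone and 0.82 to 0.906 in the co-cultures. That of Fosl1 to Jun was 4.63 to 5.53 in cells alone and 6.01 to 6.20 in the co-cultures. In all 3 ratios the groups did not overlap, as they did not in the counts of Fos, Fosl2 and Fosl1 themselves. Since Jun hardly differed, the ratios are not separate evidence. The share of all genes whose ratio to Jun would not overlap was not computed. That of Fosb to Jun, the other Fos family gene, overlapped, at 0.0152 to 0.0175 in cells alone and 0.0138 to 0.0258 in the co-cultures. The ratio of Junb to Jun overlapped as well, at 1.14 to 1.38 in cells alone and 1.19 to 1.33 in the co-cultures. Within the Fos family, the ratio of Fosl2 to Fosl1 was 0.0961 to 0.134 in cells alone and 0.137 to 0.149 in the co-cultures. These ratios are given as a description, without a test.

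**Figure D2:**
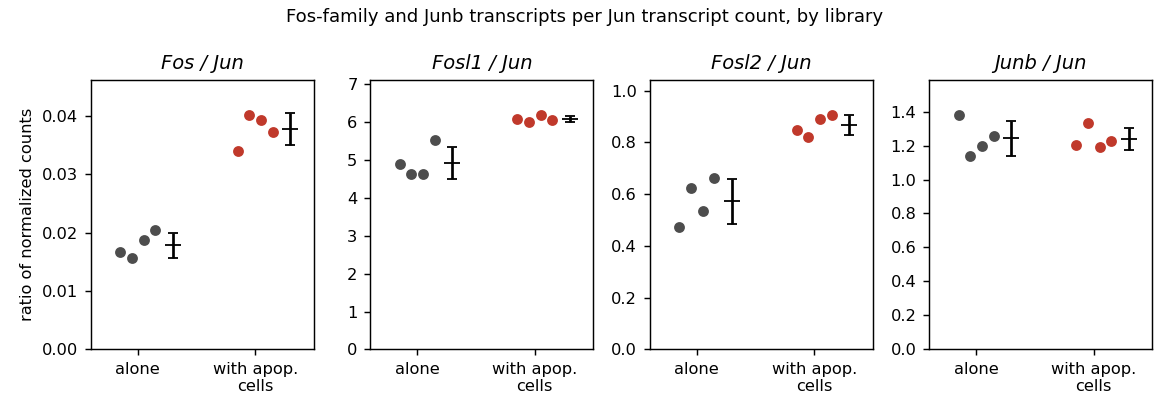
Ratio of the normalized counts of Fos, Fosl1, Fosl2 and Junb to those of Jun (y axes, from 0) in each library of cells alone (grey) and with apoptotic cells (red), with mean and SD of 4 libraries. The ratios to Jun of Fos, Fosl1 and Fosl2 lie higher in every co-culture, for Fos between 0.0341 and 0.0402 against 0.0156 to 0.0204, while those of Junb overlap, as do those of Fosb, which are not drawn.

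Mafk, a small MAF gene, fell with apoptotic cells. Its normalized counts were 1307, 1186, 1218 and 1316 in cells alone and 1060, 1043, 1058 and 1114 in the co-cultures. Every co-culture was below every library of cells alone. The log2 difference was -0.23 (SE 0.05, 95% interval -0.34 to -0.13, limma adjusted p = 0.0105). It lay between -0.26 and -0.21 with any 1 library left out, always called, and its adjusted p lay between 0.000372 and 0.0415 under the 17 alternatives.

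Maff, its stress-inducible relative, fell too, a call that depended on the libraries kept. It had 611, 509, 505 and 502 normalized counts in cells alone and 465, 429, 402 and 399 in the co-cultures. Alone library 1 was far above the other 3 libraries of its group, which still lay above all co-cultures. The log2 difference was -0.32 (SE 0.08, limma adjusted p = 0.0226), and -0.26 without alone library 1 (adjusted p = 0.00209). The call was lost without co-culture library 2 (adjusted p = 0.0594), 3 (0.0751) or 4 (0.0725), at log2 differences of -0.33 to -0.30.

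Mafg, the third small MAF gene and not on the list of 10, also fell. Its means were 3166 ± 93.5 and 2529 ± 92.6 normalized counts (n = 4 libraries each, SD, log2 difference -0.32, SE 0.04, limma adjusted p = 0.000562). The ratio of Maff to Mafg was 0.158 to 0.188 in cells alone and 0.154 to 0.178 in the co-cultures, and that of Mafk to Mafg 0.368 to 0.42 and 0.406 to 0.453, with overlap in both.

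Other bZIP genes whose products pair or compete with these factors were described from a list of 16 in the table, of which 5 were too low to be tested. Of the 11 tested, 0 rose by limma (0 also at an unadjusted p under 0.05, by edgeR and by DESeq2) and 4 fell, where 5.31% of all tested genes were called lower. They had a median log2 difference of -0.11 against 0.001 over all tested genes. Besides Mafg, these were Atf3, Jdp2 and Nfe2l2. Jdp2, encoding a bZIP repressor that pairs with JUN, stood at 691 ± 31.1 in cells alone and 517 ± 28.6 normalized counts in the co-cultures (log2 difference -0.42, SE 0.06, limma adjusted p = 0.00118). Nfe2l2, encoding NRF2, the CNC partner of small MAF proteins in the antioxidant response, fell by 0.17 on the log2 scale (SE 0.03). Atf3, a stress-induced factor that also pairs with JUN, had 85.7 ± 14.97 normalized counts in cells alone and 52.8 ± 8.79 in the co-cultures (log2 difference -0.69, SE 0.15, limma adjusted p = 0.0167). Its call was lost without co-culture library 1 (adjusted p = 0.0574), 2 (0.0509) or 3 (0.0554).

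**Figure D3:**
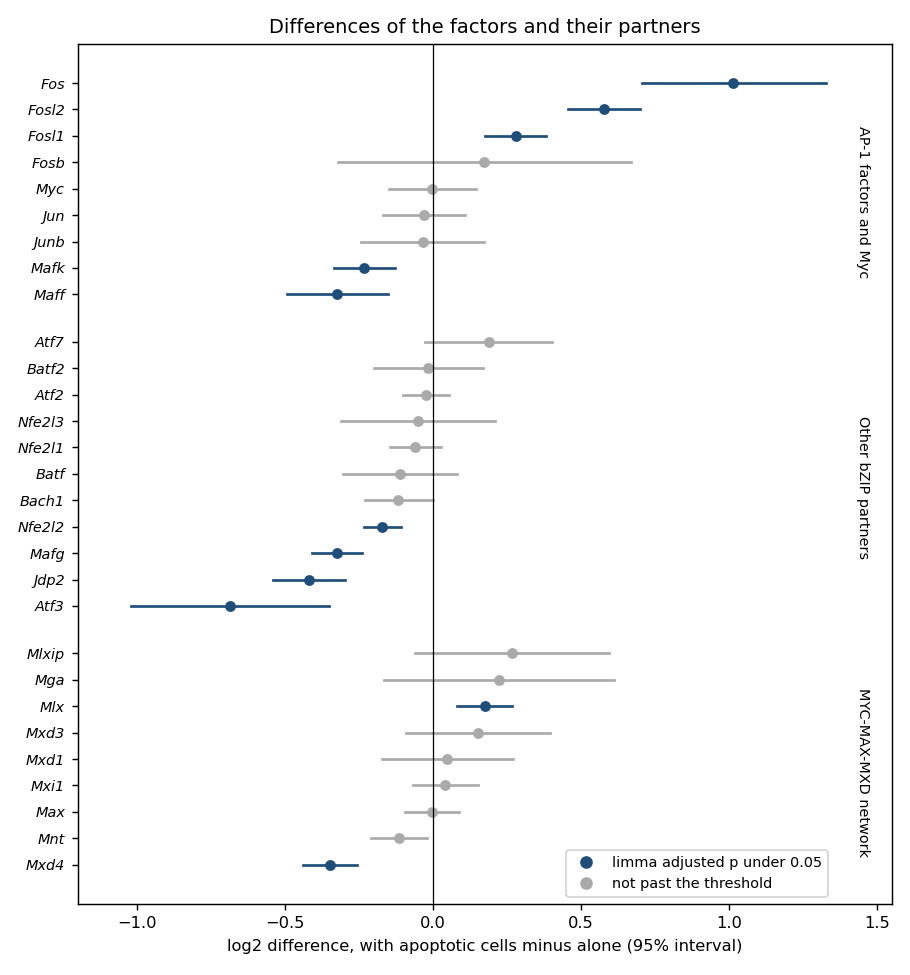
Log2 difference, with apoptotic cells minus alone (x axis), with its 95% interval for the 9 genes, for the tested bZIP partners and for the tested genes around MYC and MAX, blue where the limma adjusted p was under 0.05. Fos, Fosl2 and Fosl1 lie at 1.01, 0.58 and 0.28, and the small MAF genes Maff, Mafk and Mafg at -0.32, -0.23 and -0.32.

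Myc transcripts did not differ beyond the spread between libraries. They stood at 4693, 4514, 4755 and 4121 normalized counts in cells alone and at 4467, 5128, 4307 and 4173 in the co-cultures. Co-culture library 2 was the highest of all, and alone library 4 the lowest. The means were 4521 ± 285 and 4519 ± 423 (SD, n = 4 per group), with a log2 difference of -0.003 (SE 0.07, limma adjusted p = 0.982). The 95% interval of -0.15 to 0.14 leaves room for a fall to 0.902-fold or a rise to 1.11-fold. The SD was 6.31% of the mean in cells alone and 9.37% in the co-cultures, at 3919 to 5414 reads per library.

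MYC acts with MAX, and MXD proteins, MNT and MGA compete for the same partner. Max stood at 1429 ± 68.9 and 1425 ± 11.2 normalized counts (SD, n = 4 per group, log2 difference -0.003, limma adjusted p = 0.97), with a ratio of Myc to Max of 2.97 to 3.30 in cells alone and 2.94 to 3.60 in the co-cultures. Of 9 tested genes around MYC and MAX, 1 rose and 1 fell, where 6.36% of all tested genes were called higher and 5.31% lower. Mxd4, encoding a MAX partner that represses MYC sites, had means of 736 ± 15.01 in cells alone and 578 ± 7.24 normalized counts in the co-cultures (log2 difference -0.35, SE 0.04, limma adjusted p = 0.000533). Mlx, encoding the partner of the glucose sensor MondoA, had a log2 difference of 0.17 (SE 0.04, limma adjusted p = 0.0229). The Mlx call was lost with any library other than alone library 1 left out (adjusted p = 0.0536 to 0.0768). Without alone library 1, 2 genes of this group fell, where 12.5% of all tested genes did. Mycn had no reads and Mycl too few to be tested.

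Genes commonly listed as MYC targets rose in part. Of 34 tested, mostly genes of ribosome assembly and nucleotide synthesis, 16 rose, 18 did not pass the threshold and 0 fell by limma, at an unadjusted p under 0.05 also 0, and 0 by edgeR or DESeq2 (6.36% of all tested genes were called higher). The median log2 difference was 0.15, against 0.001 over all tested genes, and 29 of the 34 were above 0. Rrp12, a ribosome assembly factor, had 6840 ± 76.4 normalized counts in cells alone and 8089 ± 74.1 in the co-cultures (log2 difference 0.24, SE 0.03, limma adjusted p = 0.000385). Wdr43, needed for the small ribosomal subunit (0.26), Ncl, encoding nucleolin (0.23), the rRNA methyltransferase gene Nop2 (0.23) and Odc1, the first enzyme of polyamine synthesis (0.24), rose by these log2 differences. The 16 rises became 9, 10 and 10 when co-culture library 1, 2 or 4 was left out, 10 when alone library 3 was, and 25 when alone library 1 was. Rises among all tested genes went from 858 to 416, 482, 479, 497 and 1811 in the same fits, in that order. Many of the listed MYC targets also respond to factors other than MYC. Of 73 tested ribosomal protein genes, listed as a check on the libraries, limma called 0 in either direction, against 11.7% of all tested genes. Their median log2 difference was -0.08, with 8 of the 73 above 0. In these genes alone library 1 lay 0.29 above the rest of its group (median log2 deviation).

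Among 21 tested genes commonly listed as AP-1 targets, 7 rose and 0 fell by limma (2 lower at an unadjusted p under 0.05, 0 by edgeR and 1 by DESeq2), where 6.36% of all tested genes were called higher and 5.31% lower. The median log2 difference was 0.11, against 0.001 over all tested genes. Mmp10, a matrix metalloprotease gene, had 15.9 ± 1.49 normalized counts in cells alone and 33.6 ± 6.07 in the co-cultures (log2 difference 1.02, SE 0.17, limma adjusted p = 0.00384). Hmox1, the heme oxygenase gene (0.39), Ereg, encoding the EGF receptor ligand epiregulin (0.35), and Cd44, the hyaluronan receptor gene (0.28), rose by these log2 differences. The cyclin gene Ccnd1 stood at 1513 ± 126 and 1535 ± 33.0 normalized counts (log2 difference 0.03, and -0.03 without alone library 1, limma adjusted p = 0.81 with all libraries). Mmp1 had no reads, and Mmp13 and Itga2 were too low to be tested. The 7 rises became 4 without co-culture library 1 or 2, where those among all tested genes went from 858 to 416 and 482.

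Other immediate early genes moved unevenly. Of 15 tested, 5 rose and 1 fell, where 6.36% of all tested genes were called higher and 5.31% lower. The median log2 difference was 0.11, against 0.001 over all tested genes. Egr3 and Egr1, zinc finger factors switched on by the ERK pathway, rose by 1.01 (SE 0.11) and 0.56 (SE 0.05) on the log2 scale, and Ier3 by 0.52 (SE 0.08). Nr4a3, an orphan nuclear receptor gene (0.95), and Klf10 (0.26), both named after their values were seen, were the other genes that rose. Nr4a3 (limma adjusted p = 0.0414) overlapped between the groups and lost its call in 8 of 16 alternatives (adjusted p up to 0.127), among them the omission of alone library 2, of alone library 3 and of each co-culture in turn. Klf10 (limma adjusted p = 0.0367) lost its call in 7 of 17 (up to 0.107), which include leaving out alone library 3 or 4 or any of the co-cultures. Ier5 fell by 0.29 on the log2 scale, a call lost without co-culture library 1 (limma adjusted p = 0.056), 2 (0.0524) or 3 (0.0554). The 5 rises became 3 when alone library 3 was left out, or any 1 of the co-cultures. Rises among all tested genes went from 858 to between 416 and 497 in those fits.

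**Figure D4:**
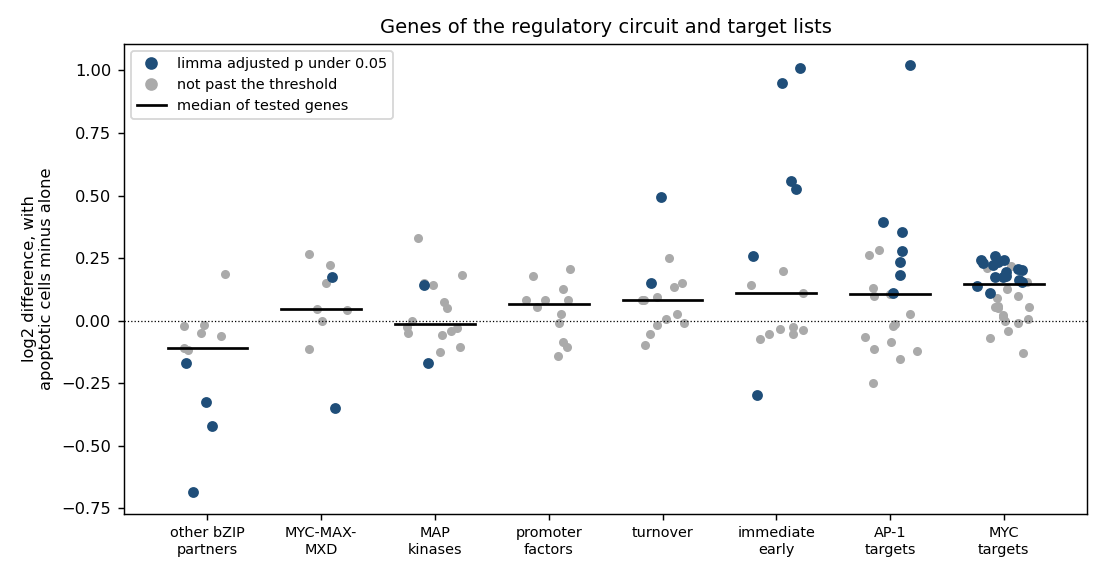
Log2 difference, with apoptotic cells minus alone (y axis), of each tested gene in 8 lists, blue where the limma adjusted p was under 0.05, with a black line at the list's median and points spread sideways for legibility. The MYC target list has its median at 0.15 with 16 genes called higher, and the other bZIP partners have theirs at -0.11 with 4 genes called lower.

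Upstream of Fos and Jun, called genes are to be read against 11.7% of all tested genes (26% without alone library 1). Of 12 tested genes for factors that bind the FOS and JUN promoters, 0 passed the limma threshold (1 higher and 0 lower at an unadjusted p under 0.05, and 0 by edgeR and DESeq2). The serum response factor gene Srf stood at 1834 ± 47.3 and 1905 ± 49.0 normalized counts (SD, n = 4 per group, log2 difference 0.05, limma adjusted p = 0.365), and its partner gene Elk1 at 1726 ± 89.8 and 1623 ± 26.3 (-0.09, adjusted p = 0.23). Elk1 was called lower without alone library 1 (limma adjusted p = 0.00508), as 1 of 4 genes of this list called then, 2 in each direction. Of 16 tested genes of MAP kinases and the kinases above them, Araf rose (0.14) and Mapk3, encoding ERK1, fell (-0.17). The Araf call was lost when any library other than alone library 1 was left out (adjusted p = 0.053 to 0.0833), and that of Mapk3 without alone library 4 or co-culture library 1, 2 or 3 (0.0589 to 0.0761). Without alone library 1 itself, 2 of these kinase genes rose and 5 fell. The log2 difference of Mapk8, encoding the JUN kinase JNK1, was 0.08 (95% interval -0.02 to 0.17) and did not pass.

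Among 14 tested genes for the turnover of these mRNAs and proteins, 2 rose and 0 fell by limma (0 lower at an unadjusted p under 0.05, and 0 by edgeR and DESeq2), where 6.36% of all tested genes were called higher. They were Zfp36l2 and Khsrp, whose products promote the decay of mRNAs with AU-rich elements, such as that of Fos. Zfp36l2 had 177 ± 37.4 normalized counts in cells alone and 245 ± 12.9 in the co-cultures (log2 difference 0.49, SE 0.14, limma adjusted p = 0.0449), and Khsrp rose by 0.15 (SE 0.04, limma adjusted p = 0.0435). Both calls were lost whenever a co-culture library was left out, and without alone library 3 or alone library 4 (adjusted p = 0.0651 to 0.123 for Zfp36l2 and 0.0758 to 0.133 for Khsrp) and with no filter on low values (0.0554 and 0.0648). Without alone library 1, 6 genes of this list rose and 1 fell, where 13.4% and 12.5% of all tested genes did.

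Genes whose pattern over the 8 libraries was most like that of Fos, by Pearson's r of log2(normalized count + 1) searched over 8940 genes of mean 100 or more that are not listed under a LOC number, were Tmem199 (r = 0.992), Fem1a (0.991) and Eif5 (0.99). All 3 rose, by 0.15, 0.29 and 0.32 on the log2 scale, so that the likeness is mainly that of the groups. With group means removed, the genes most like Fos were Rsph3, C1d and Mppe1, none of them shared with the first set. For Jun the most similar genes over the 8 libraries were Smyd3, Slc35a1 and Porcn (r = 0.943 to 0.952), and for Myc they were Hic1 (0.963), Ccdc174 (0.942) and L3hypdh (0.923). Hic1 and Ccdc174 were also among the 3 most like Myc once group means were removed (0.968 and 0.956). These values come from a search over many genes with 8 libraries that share 2 groups, and are given as a description.

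**Figure D5:**
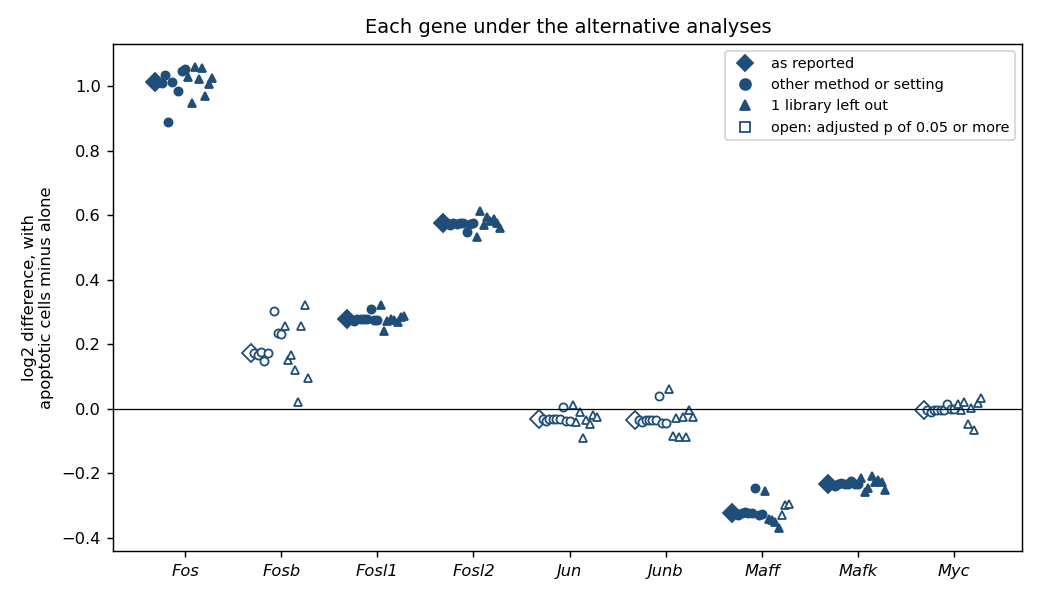
Log2 difference (y axis) of each of the 9 genes as reported (diamonds), with another method or setting (circles) and with 1 library left out (triangles), open where the adjusted p was 0.05 or more. Fos, Fosl1, Fosl2 and Mafk are filled throughout, Maff is open in 3 of 17 alternatives, and Fosb, Jun, Junb and Myc are open throughout.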

How the data were processed

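Per the submitters' processing notes, FastQC, STAR, featureCounts and DESeq2 were used. No version, genome build, annotation or strand setting is given in those sources, nor any step that separates human from hamster reads, so human reads may be included in the counts. The authors deposited 1 table with a signal per gene and library, which the values show to be read counts divided by 1 size factor per library (called normalized counts). In every library 100% of values were whole multiples of 1 read within 0.01 reads, so whole reads were recovered. The table also holds the authors' log2 fold changes, p-values and a score, per the file headers, quoted only where named. A row without a gene name (0.14 to 0.176% of reads) was left out. A prefix in the column names is not explained by the labels, and columns were matched to them by replicate number and the letters AC.

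The 9 genes and all lists were chosen with earlier results of these data known. The comparison was fitted across all genes with limma 3.58.1 in R 4.3.3 (limma-trend, two-sided) on log2(normalized count + 1), a scale that understates changes of scarce genes, with group as the only term. Genes listed only under a LOC number were matched through RefSeq gene IDs. Of the other lists, up to 4 called genes with the smallest adjusted p were named, together with Max, Atf3, Mafg, Srf, Elk1, Mapk3, Mapk8, Ccnd1 and Odc1. A further gene of this rule is not reported here. Alternatives were a replicate block, TMM scaling, pseudocounts of 0.5 and 5, no filter, a mean of at least 100, array weights, edgeR 4.0.16 (quasi-likelihood) and DESeq2 1.42.0 on the recovered reads, and each library left out. The fit was tested on simulated counts with the same spread for every gene and no library unlike the rest, unlike these data. It recovered 44.8% of changes of 1.2-fold, 80.6% of 1.5-fold and 92.4% of 2-fold, and called 9 unchanged genes. A change of about 1.2-fold can therefore be missed. Replicate pairs differed by more than sampling noise, with chi-square per degree of freedom of 1.55 or more. It was 16.58 to 31.1 in pairs that include alone library 1, and 1.55 to 3.28 in all other pairs. Figures were drawn with matplotlib 3.10.9.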

Additional observations from a re-analysis of the deposited data

Results flagged for a closer look

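In 74 groups of 4 libraries (the 9 genes and the other named genes, each alone and with apoptotic cells), 2 held a library far from the other 3, where chance gives about 1 in 20. Maff stood at 610.6 normalized counts in alone library 1, against 501.6 to 508.6 in the rest of its group. Ereg stood at 996.1 in the same library, against 866.7 to 882.2.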

How the results depend on the processing

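The calls of Fos, Fosl1, Fosl2 and Mafk held under every alternative in which the gene was tested. Fos and Fosb were too low for the filter at a mean of 100. Among the values of the 9 genes under the alternatives, 138 kept their direction and side of the threshold, 3 lost a call (all Maff, with log2 differences of -0.37 to -0.26 over left-out libraries) and 10 turned in sign, none of them called. Those were Jun, Junb and Myc with array weights (0.007, 0.041 and 0.016) and with libraries left out, where Jun ran from -0.09 to 0.013, Junb from -0.088 to 0.061 and Myc from -0.065 to 0.034. Max and Ccnd1, also not called, turned to 0.019 and -0.03 with array weights, and ran from -0.024 to 0.027 and from -0.031 to 0.058 over left-out libraries. The cause of these changes was not tested.

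Same-numbered libraries of the groups did not deviate together (r = -0.026, 0.068, 0.011 and -0.09 over genes for numbers 1 to 4), so the numbers are not taken as pairs. With a replicate block, 498 genes were higher and 400 lower, against 858 and 716 without it, and the 9 genes kept 3 rises and 2 falls. In the lists, the block left 0 rises around MYC and MAX, 0 rises and 0 falls among MAP kinases, 0 rises among turnover genes, 3 among immediate early genes and 4 among AP-1 targets.

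With array weights, 1804 genes were higher and 1674 lower. The weights gave 2 falls around MYC and MAX, 2 rises and 4 falls among MAP kinases (median 0.019), 2 and 2 among promoter factors, 6 and 1 among turnover genes, and 1 fall among AP-1 targets. DESeq2 also gave 1 fall there, no filter gave 0 rises among turnover genes, and a mean of at least 100 gave the bZIP partners a median of -0.085.

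Over left-out libraries, 416 to 1811 genes were higher and 356 to 1694 lower, in both cases with the lowest count without co-culture library 1 and the highest without alone library 1. Falls among the 9 genes ran from 1 to 2, and among bZIP partners from 3 to 6 (median -0.133 to -0.084). Around MYC and MAX there were 0 to 1 rises and 1 to 2 falls, among MAP kinases 0 to 2 and 0 to 5 (median -0.029 to 0.021), and among promoter factors 0 to 2 of each. Turnover genes had 0 to 6 rises and 0 to 1 falls, immediate early genes 3 to 6 and 0 to 1 (median 0.062 to 0.139), AP-1 targets 4 to 9 and 0 to 2, and MYC targets 9 to 25 rises. Among the 9 genes, depth limits Fos and Fosb most, which rest on 13 to 40 reads per library. Of the called genes in the other lists, Mmp10 rests on 15 to 43 reads per library and Nr4a3 on 17 to 54, so they are limited in a similar way.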
